A study of Caenorhabditis elegans with 16 samples.

Results

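Poly(A) RNA from fed wild-type Caenorhabditis elegans was compared between worms held at 20°C (basal) and worms given a 30 min heat shock at 35°C, with 4 libraries a side. The comparison covers the 410 genes that are listed in both deposited tables, out of 3698 genes listed in either of them. Each table was built around fasted against fed worms, the first at 20°C with 2666 genes and the second after heat shock with 1442 genes, and each holds genes that passed an unadjusted p of 0.05 in the authors' own test of fasting. Every fed library therefore took part in choosing the genes, and the 410 genes are not a sample of the genome.

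The study asked how a period without food at the passage to adulthood changes the response of worms to stress. All worms were of the N2 laboratory wild type, carried no transgene, and were grown at 20°C on agar plates seeded with OP50, a strain of Escherichia coli that serves as food. RNA came from whole animals, so that every tissue and the germline contributed. The 4 groups were fed basal, fed heat shock, fasted basal and fasted heat shock, where fasted worms had spent 24 h on plates without food from the middle of the last larval stage, L4, and heat shock was given by submerging plates in a water bath. The sample records describe a further 24 h back on food before the heat shock, whereas the study's text describes collection directly after the fast and the heat shock, so the adult age of the fed worms is known only within that range. Whether the 4 replicates were grown as separate cultures is nowhere stated, and the p-values then rest on variation among libraries that may be technical.

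The heat shock response is led by HSF-1, a transcription factor that is held inactive under normal conditions and, when proteins begin to misfold, binds heat shock elements in its target genes. Its targets include chaperones of the small heat shock protein, HSP70 and HSP90 families, which bind unfolded proteins or help to refold them. In worms the response is strong in young animals and weakens early in adulthood, as egg laying begins. Most of the inducible chaperone genes that define the response, such as those of the HSP70 and HSP90 machinery, were not among the 410 genes: 5 of 20 HSF-1 targets named in the study, 2 of 16 small heat shock protein genes and 0 of 49 genes on a list of the HSP70 and HSP90 machinery could be compared.

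Levels are given as counts per 1000000 reads of the library (CPM), where the library's reads were recovered from the deposited counts, FPKM values and gene lengths. The fed basal libraries held 15859001 to 20345508 reads and the fed heat shock libraries 17071113 to 24718844. The shared genes took 1.55% to 1.63% of reads in fed basal libraries and 1.66% to 1.88% in fed heat shock libraries. Genes named hsp in the heat shock table took 1.28% to 1.68% of reads in the fed heat shock libraries. Not all of these genes were listed at 20°C, so this share alone does not check the labels. Heat shock replicate 1 stood apart from its group: across the shared genes its chi-square distance per gene from the other 3 libraries was 51.3 to 66.5, against 15.7 to 20.3 among those 3 and 18.1 to 36.9 among the basal libraries, and its levels lay a median of 0.35 log2 units above the median of the other 3. No libraries were identical. Values without it stand beside the results that it moved most. Of the 410 genes 116 overlap another gene on the opposite strand, and since the sources used here do not give the strand setting of the counting, reads of such genes and their partners cannot be told apart.

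Few of the shared genes were called changed by heat shock in fed worms. The genes called higher included HSF-1 targets of unknown or metabolic function, a beta-tubulin and a glucuronosyltransferase. The single gene called lower was drd-1. By edgeR's quasi-likelihood test with Benjamini-Hochberg adjustment over the 410 genes, 11 genes (2.68%) had an adjusted p under 0.05, of which 10 (2.44%) were higher after heat shock and 1 (0.244%) was lower. Without heat shock replicate 1 the same 11 genes were called with 10 others, 21 in all, 14 higher and 7 lower. Over the 410 genes the log2 fold change had a median of -0.05, with quartiles at -0.39 and 0.32 and a range from -3.08 to 4.28, and 260 genes (63.4%) lay within 0.5 log2 units of 0. The median standard error of a gene's log2 fold change was 0.36. In RNA from whole worms, fewer cells of a type and less RNA per cell cannot be told apart. The 4 levels after heat shock lay entirely above the 4 basal levels for 30 genes (7.32%) and entirely below them for 15 genes (3.66%). At an unadjusted p under 0.05, 74 genes (18%) passed, 39 of them higher (9.51%) and 35 lower (8.54%).

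**Figure D1:**
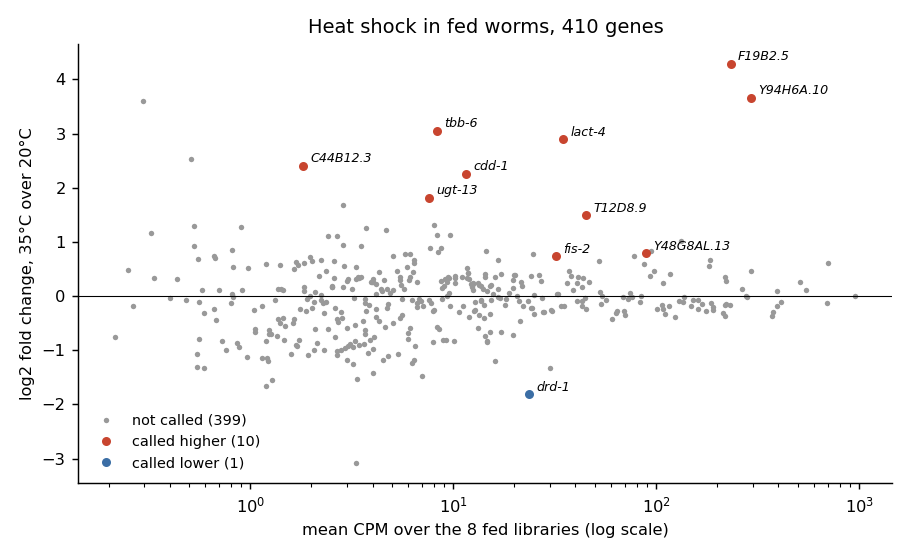
Log2 fold change of heat shock over basal in fed worms (vertical axis) against the mean level over the 8 fed libraries (horizontal axis, CPM, log scale), 1 point for each of the 410 genes listed in both tables. The 10 genes called higher (red) and the 1 called lower (blue) by edgeR stand outside a band in which most of the 399 genes that were not called lie, and the genes with the largest changes among those not called have low levels.

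The largest rise belonged to F19B2.5, one of the HSF-1 targets that the study names (V:20162648-20163732, minus strand, in the WBcel235 build used for all positions here). Its levels in the basal libraries, in the order of their replicate numbers, were 17.3, 22.4, 30.4 and 20.8 CPM, and after heat shock 259, 409, 564 and 539 CPM. Every heat shock library was several times above every basal library, the mean was 19.5-fold higher, and the log2 fold change was 4.28 (SE 0.28, edgeR adjusted p = 5.1e-06).

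Y94H6A.10 (IV:2709900-2710670, minus strand), also among the named HSF-1 targets, rose from 22.1, 66.1, 58.6 and 26.6 CPM to 759, 406, 588 and 428 CPM. The basal libraries fell into a lower pair, replicates 1 and 4, and a higher pair, replicates 2 and 3, but the heat shock libraries lay well above both. The mean was 12.6-fold higher (log2 fold change 3.65, SE 0.38, edgeR adjusted p = 0.00019).

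The third HSF-1 target that rose was cdd-1 (X:8208751-8211149, minus strand), which encodes a cytidine deaminase of pyrimidine salvage. It measured 3.19, 3.47, 5.0 and 4.23 CPM in basal libraries and 15.3, 16.486, 23.3 and 21.2 CPM after heat shock, a 4.8-fold rise that was even across libraries (log2 fold change 2.26, SE 0.25, edgeR adjusted p = 0.00026).

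The other named targets in the set did not pass the test. egg-5 (I:4168987-4171589, minus strand), whose pseudophosphatase product acts at the oocyte-to-embryo transition, had a mean of 283 ± 30.9 CPM at 20°C and 280 ± 31.7 CPM after heat shock (SD, n = 4 each), a log2 fold change of -0.02. Y22D7AL.10 (III:1617154-1618929, minus strand), the worm's mitochondrial HSP10 co-chaperonin, had 231 ± 20.0 and 205 ± 20.2 CPM (log2 fold change -0.17, edgeR adjusted p = 0.49), with overlapping libraries. The study chose these 5 genes with these samples in hand, so their count of 3 higher, beside 2.44% of all 410 genes, is a description.

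**Figure D2:**
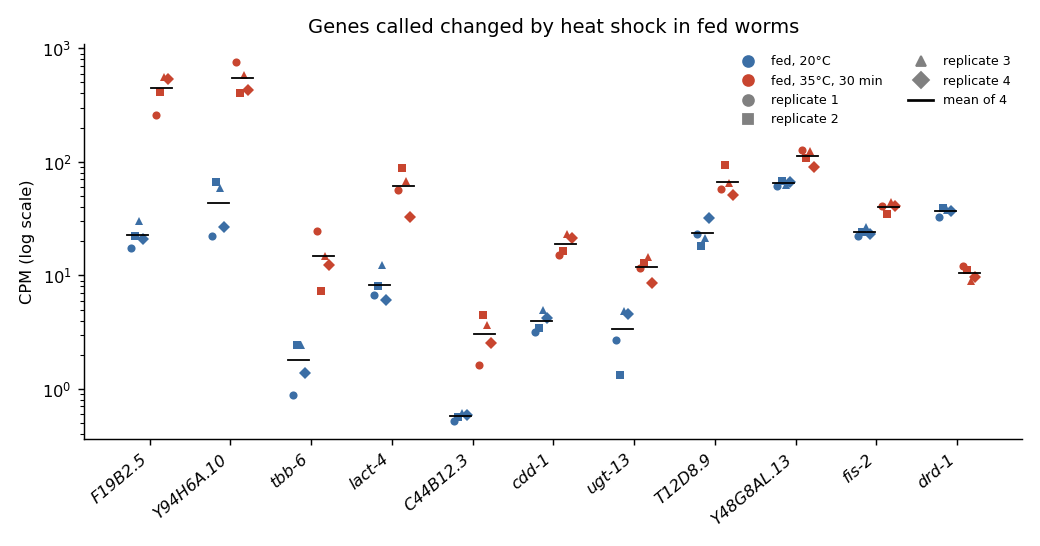
Levels of the 11 genes called changed by heat shock in fed worms (vertical axis, CPM, log scale) in each basal library (blue) and heat shock library (red), with a marker shape for each replicate number and a bar at the mean of 4. For each gene the libraries of the 2 temperatures do not overlap, with 10 genes higher and drd-1 lower after heat shock.

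Among the small heat shock proteins, hsp-25 (X:6034507-6039236, minus strand) measured 36.7, 34.1, 41.5 and 49.7 CPM at 20°C and 79.7, 63.5, 54.5 and 56.7 CPM after heat shock. The groups did not overlap, with heat shock replicate 1 the highest, but the log2 fold change of 0.65 (SE 0.17) missed the threshold (edgeR adjusted p = 0.075), and hsp-25 overlaps other genes on the opposite strand. hsp-16.20 (V:14461943-14462768, minus strand), a member of the same family, stayed near the limit of detection in fed worms, with 8, 7, 7 and 7 reads in basal libraries and 20, 9, 2 and 9 reads after heat shock. Its log2 fold change was 0.31 (SE 0.55) with overlapping groups, and -0.08 without heat shock replicate 1. xbp-1, the transcription factor of the endoplasmic reticulum unfolded protein response, had 191, 210, 200 and 198 CPM at 20°C and 211, 235.116, 250 and 275 CPM after heat shock. Its groups were apart by a narrow margin, and the log2 fold change of 0.28 (SE 0.11) did not pass (edgeR adjusted p = 0.20).

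A beta-tubulin gene gave the third largest rise among genes called. tbb-6 (V:12261804-12263368, plus strand) went from 0.890, 2.46, 2.42 and 1.38 CPM to 24.8, 7.23, 14.7 and 12.2 CPM. Heat shock replicate 1 was the highest and replicate 2 the lowest, still well above the highest basal library. The mean was 8.25-fold higher (log2 fold change 3.05, SE 0.45, edgeR adjusted p = 0.0027), and the log2 fold change was 2.67 without heat shock replicate 1 (edgeR adjusted p = 0.0073).

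The genes next to tbb-6 were also higher after heat shock. They are named here after their values were seen. ssp-35 (V:12263368-12263845, minus strand), named as a member of a sperm-specific family, overlaps the end of tbb-6 by 1 base. F55C5.2 (V:12264002-12265492, plus strand), annotated as a pseudogene, follows after a gap of 157 bases. ssp-35 had 0, 0, 0 and 3 reads in basal libraries and 4, 19, 8 and 10 after heat shock, and F55C5.2 had 3, 2, 1 and 5 reads against 10, 27, 11 and 18. Heat shock replicate 2, the lowest of its group for tbb-6, was the highest for both neighbours. Both missed the threshold with all libraries (edgeR adjusted p = 0.078 and 0.052) and passed it without heat shock replicate 1 (0.047 and 0.024).

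lact-4 (II:8477952-8480478, minus strand), which encodes a protein with a beta-lactamase domain, rose from 6.65, 8.01, 12.3 and 6.05 CPM to 56.7, 89.1, 67.1 and 32.4 CPM. The lowest heat shock library, replicate 4, was above the highest basal library, and the mean was 7.43-fold higher (log2 fold change 2.89, SE 0.34, edgeR adjusted p = 0.00032). lact-4 overlaps M05D6.3 on the opposite strand.

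C44B12.3 (IV:1104773-1105273, plus strand) was a gene of low level with 10, 9, 12 and 12 reads in basal libraries, which was 0.523, 0.568, 0.619 and 0.590 CPM, and 1.62, 4.49, 3.63 and 2.55 CPM after heat shock. The basal libraries were close to each other, while the heat shock libraries were spread more widely, with replicate 1 the lowest. The log2 fold change was 2.4 (SE 0.43, edgeR adjusted p = 0.0078).

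UDP-glucuronosyltransferases, enzymes that attach sugars to foreign and endogenous compounds, were mostly higher after heat shock, and 1 of the 5 measured members passed the test against 2.68% of the 410 genes. ugt-13 (V:4908871-4911458, plus strand) went from 2.67, 1.32, 4.90 and 4.57 CPM to 11.7, 12.8, 14.5 and 8.50 CPM, 3.53-fold higher in the mean (log2 fold change 1.81, SE 0.39, edgeR adjusted p = 0.030). The call was lost without basal replicate 1 and without heat shock replicate 2 or 3. ugt-25 had 3.72, 5.68, 6.13 and 5.36 CPM against 15.2, 6.95, 13 and 10.5 CPM, with groups apart (log2 fold change 1.13, edgeR adjusted p = 0.075). ugt-8 and ugt-11 had log2 fold changes of 1.11 and 0.56 with overlapping groups. ugt-19 ran the other way, at 4.34, 4.35, 6.18 and 5.50 CPM against 3.48, 2.52, 2.75 and 3.29 CPM, also with groups apart (log2 fold change -0.76, edgeR adjusted p = 0.19). The median over the 5 genes was 1.11, against -0.05 over the 410.

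3 further genes passed with smaller changes, and each of them overlaps another gene on the opposite strand. T12D8.9 (III:13617105-13621449, plus strand) measured 23.1, 18.3, 21.4 and 32.2 CPM at 20°C and 57.6, 93.4, 65.1 and 50.5 CPM after heat shock (2.81-fold, log2 fold change 1.49, SE 0.23, edgeR adjusted p = 0.0038). Its partner on the other strand is hip-1, which encodes an HSP70-interacting protein and is one of the HSF-1 targets that the study names, and the part of hip-1 reads in the rise of T12D8.9 was not tested. Y48G8AL.13 (I:1223956-1227858, minus strand, over herc-1) had narrow groups, at 61.8, 68.3, 63.1 and 66.3 CPM against 127, 107, 125 and 89.5 CPM (1.73-fold, log2 fold change 0.79, SE 0.14, edgeR adjusted p = 0.0076). fis-2 (X:8283280-8285219, minus strand, over ksr-1), a homologue of the mitochondrial fission factor FIS1, had 22.4, 24.0, 26.6 and 22.95 CPM against 40.6, 34.8, 44.1 and 40.5 CPM (1.67-fold, log2 fold change 0.74, SE 0.15, edgeR adjusted p = 0.023). fis-2 was the least secure of the calls: it was lost without basal replicate 1, 2 or 4 and without heat shock replicate 3 or 4.

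The single gene called lower was drd-1 (II:8388125-8389891, plus strand), whose name comes from its lower expression under dietary restriction. Its levels were 32.8, 38.9, 37.9 and 37.1 CPM at 20°C and 12.2, 11.1, 8.90 and 9.62 CPM after heat shock. Both groups were tight and far apart, the basal mean was 3.51-fold higher, and the log2 fold change was -1.81 (SE 0.18, edgeR adjusted p = 0.00016). For each of the 11 genes called, the 2-sided exact permutation test over libraries gave p = 0.029, the smallest that 4 against 4 libraries allow. That value follows from groups that do not overlap, so it adds no support beyond the separation.

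Several genes with non-overlapping groups came close to the threshold. set-18, a histone methyltransferase gene, had 5.60, 2.90, 3.76 and 6.19 CPM against 16.06, 10.7, 10.4 and 8.93 CPM after heat shock (log2 fold change 1.32, edgeR adjusted p = 0.052). ucr-2.1, a core subunit of respiratory complex III, had 66.7, 72.6, 59.2 and 80.3 CPM against 123, 104.4, 98.5 and 93.2 CPM (log2 fold change 0.59, edgeR adjusted p = 0.052). The other respiratory chain genes in the set were flat, with log2 fold changes of -0.03 for cox-6C and 0.10 for cyc-2.1. calu-1, a calumenin of the secretory pathway, and atn-1, the muscle alpha-actinin, had log2 fold changes of 0.66 and 0.74 with groups apart (edgeR adjusted p = 0.075 and 0.083), and for both heat shock replicate 1 was the highest library. set-18, calu-1, atn-1 and hsp-25 were picked out after their values were seen, and set-18 and atn-1 overlap genes on the opposite strand, as do ugt-25, ugt-19, lea-1, ncx-7, spin-1, ilys-4 and pqn-75.

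lea-1, which encodes a protein related to the late embryogenesis abundant proteins of desiccation tolerance, had 257, 277, 242 and 213 CPM against 283, 348, 405 and 319 CPM. The groups were apart by a narrow margin, the log2 fold change was 0.45 (SE 0.13), and the call was made without heat shock replicate 1 (edgeR adjusted p = 0.045) but not with it (0.084). F08B12.4 had 54.3, 65.6, 94.3 and 54.6 CPM against 131, 104.1, 148 and 98.6 CPM (log2 fold change 0.84, edgeR adjusted p = 0.052). Among the cathepsin B-like proteases, cpr-3 had groups apart, at 9.74, 10.2, 12.4 and 8.99 CPM against 12.8, 18.1, 25.2 and 17.9 CPM, and crossed the threshold without heat shock replicate 1 (log2 fold change 0.98, edgeR adjusted p = 0.028) but not with it (0.84 and 0.083). cpr-4 and cpr-5, its relatives of the gut, had log2 fold changes of -0.20 and -0.25 with wide overlap, and of -0.51 and -0.46 without heat shock replicate 1 (edgeR adjusted p = 0.092 and 0.39).

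Genes of molting and the collagens with body-shape names were lower after heat shock in sign, and none passed the test. The collagens of the col series lay on both sides of 0. The nematode cuticle is a collagen matrix laid down by the hypodermis and shed at each larval molt, and transcripts of many of these genes rise and fall with the molting cycle. Of 16 genes on a list of molting factors, cuticlins and astacin proteases, 16 had a log2 fold change below 0, against 54.4% of the 410 genes, with a median of -0.61 and a range from -1.42 to -0.09. 0 of the 16 were called, 2 were lower at an unadjusted edgeR p under 0.05 against 8.54% of the 410 genes, and the groups were apart for 1 against 3.66%. That gene was mltn-9, with 3.61, 2.71, 4.02 and 3.88 CPM against 0.809, 2.3, 2.17 and 1.81 CPM (log2 fold change -1.01, edgeR adjusted p = 0.20).

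The 4 collagens with body-shape names also lay below 0 and were not called. sqt-2 had the lowest fold change of the whole set, with 6.75, 0.378, 7.47 and 9.09 CPM at 20°C and 0.162, 0.953, 0.586 and 1.12 CPM after heat shock. Basal replicate 2 lay among the heat shock libraries while the other 3 basal libraries were far above them, and the log2 fold change of -3.08 had an SE of 0.83 (edgeR adjusted p = 0.075). dpy-3 showed the same library apart, with 5.86, 0.126, 2.32 and 7.47 CPM against 1.34, 1.91, 0.820 and 4.3 CPM (log2 fold change -0.92, edgeR adjusted p = 0.60). dpy-7 and dpy-2 had log2 fold changes of -0.88 and -0.70. The 6 collagens of the col series lay on both sides of 0, 4 above and 2 below with a median of 0.26, and 3 and 3 with a median of 0.01 without heat shock replicate 1. col-140, at 558 ± 101 CPM against 849 ± 190 CPM (SD, n = 4 each), had a log2 fold change of 0.61 (edgeR adjusted p = 0.078). col-19 was at 0.55 and col-42 at 0.41, and without that library the 3 genes were at 0.44, 0.11 and 0.24. col-77 was at -1.54.

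The hedgehog-related and patched-related genes, which in worms act mainly in the hypodermis and in cuticle formation, were not called either. qua-1, ptr-10, ptr-4 and wrt-2 had log2 fold changes from -0.96 to -0.70. ptr-4 had 3.77, 0.441, 1.55 and 7.32 CPM against 1.34, 1.96, 0.937 and 3.56 CPM, so that the basal libraries alone spanned more than the whole heat shock group, and its log2 fold change of -0.75 became 0.01 without basal replicate 4. 4 lipocalin-related genes, lpr-3, lpr-6, lpr-5 and lpr-4, lie side by side on the plus strand of chromosome X from 11057436 to 11066811 and had log2 fold changes of -0.91, -1.0, -1.42 and -1.54. lpr-4, for example, had 6.07, 0.441, 4.17 and 9.19 CPM against 0.850, 1.68, 0.879 and 3.45 CPM, again with basal replicate 2 the lowest of its group (edgeR adjusted p = 0.33).

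The spread within the basal group was larger than the difference between temperatures for these lists. Averaged over the molting list as log2(CPM + 0.1) and centred on the 8 fed libraries, the basal libraries stood at 0.77, -0.89, 0.22 and 1.08 and the heat shock libraries at -0.29, -0.25, -0.94 and 0.30. The body-shape collagens had 1.61, -2.25, 0.65 and 1.90 at 20°C against -0.90, -0.38, -1.33 and 0.69, and the hedgehog-related list had 0.99, -1.99, 0.04 and 1.61 against -0.03, 0.03, -0.99 and 0.33. Basal replicate 2 was the lowest basal library for all 3 lists. Without it the medians moved further from 0, to -0.86, -1.28 and -1.11. Without basal replicate 4, the highest, they moved to -0.36, -0.43 and -0.25, and 2 of the 4 hedgehog-related genes were then above 0. Without heat shock replicate 4 the medians were -0.92, -1.59 and -1.02, and without heat shock replicate 1 there were 15 of the 16 molting genes below 0.

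**Figure D3:**
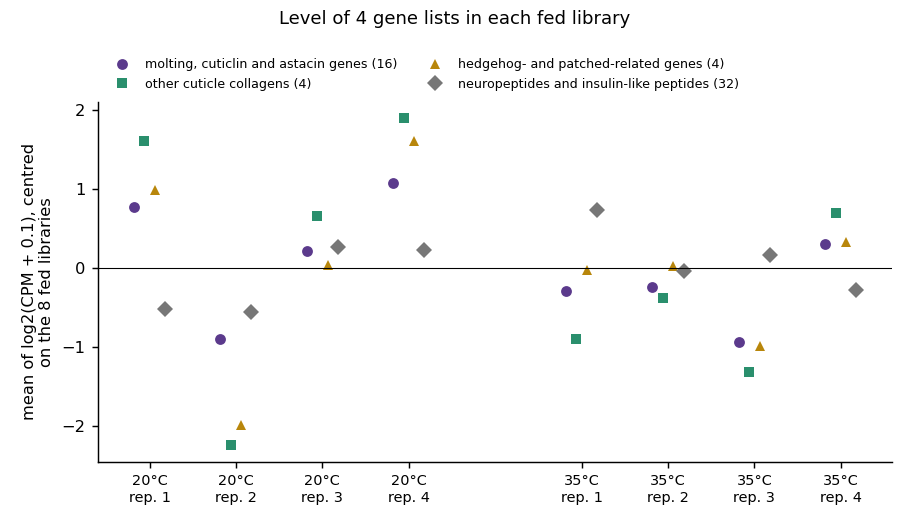
Mean of log2(CPM + 0.1) over the members of 4 gene lists, centred on the 8 fed libraries (vertical axis, log2 units), in each basal (left) and heat shock (right) library; the number of genes in each list stands in the legend. The 3 cuticle and molting lists vary together, and among the basal libraries replicate 2 is lowest and replicate 4 highest for each. The neuropeptide list is highest in heat shock replicate 1.

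Neuropeptide genes leaned upwards by a small amount that varied with the library left out. Neuropeptides of the FMRFamide-like (flp), neuropeptide-like (nlp) and insulin-like (ins) families are released by neurons, and some by the gut, to act on other cells. Of 32 measured members 28 had a log2 fold change above 0, against 45.6% of the 410 genes, with a median of 0.25, and 0 were called. Without heat shock replicate 1, 18 of 32 were above 0 and the median was 0.08, and without basal replicate 1 or 2 there were 22 of 32 above 0 with medians of 0.15 and 0.13. Without basal replicate 3 or 4 the medians were 0.40 and 0.45. ins-4, the largest of them, had 0.209, 0.504, 0.979 and 0.393 CPM against 1.01, 1.63, 1.70 and 0.744 CPM, with overlapping groups (log2 fold change 1.27, edgeR adjusted p = 0.23). flp-3 had 3.35, 4.54, 5.82 and 4.33 CPM against 13.2, 4.26, 8.44 and 5.05 CPM. Its log2 fold change was 0.78 with all libraries and 0.39 without heat shock replicate 1, and that of the neighbouring gene flp-2, named after its values were seen, was 0.61 with and 0.43 without it. Both genes lie over W07E11.1 on the opposite strand.

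The enzymes that process neuropeptide precursors also moved with heat shock replicate 1. egl-3, a proprotein convertase, had 28.5, 26.4, 37.6 and 40.1 CPM at 20°C and 67.9, 36.7, 39.1 and 26.8 CPM after heat shock, so that replicate 1 alone stood above the basal range, and its log2 fold change fell from 0.36 to 0.04 without that library. egl-21, a carboxypeptidase, went from 0.34 to 0.10 in the same way. nep-1, a neprilysin of peptide breakdown, had a log2 fold change of -0.33 with groups just apart. The 7 nspc genes, a family of short secreted peptides encoded mostly in a cluster on chromosome X, were at 0.16 to 0.93 with a median of 0.26, and at a median of 0.10 without heat shock replicate 1, 0.08 without basal replicate 1 and 0.69 without basal replicate 3.

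Genes on a list of transporters and channels leaned the other way. Of the 11 measured, 5 had an unadjusted edgeR p under 0.05 in the lower direction, against 8.54% of the 410 genes. None was called: 0 of 11, against 2.68% of the 410 genes. The groups were apart for 1 in the lower and 1 in the higher direction, against 3.66% and 7.32%. The median of the 11 was -0.41, and -0.71 without heat shock replicate 1 but -0.19 without basal replicate 4. ncx-7, a sodium/calcium exchanger, had 7.85, 7.0, 14.4 and 12.2 CPM at 20°C and 6.19, 3.36, 2.28 and 2.98 CPM after heat shock. The groups did not overlap, and heat shock replicate 1 was the nearest to the basal libraries. The log2 fold change was -1.48 (SE 0.37, edgeR adjusted p = 0.062), and -1.85 without heat shock replicate 1 (edgeR adjusted p = 0.016).

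pept-1, the intestinal transporter of dietary di- and tripeptides, had 41.6, 26.7, 37.8 and 65.7 CPM against 29.2, 16.6, 7.73 and 14.5 CPM. Heat shock replicate 1 lay within the basal range and the other 3 below it, and the log2 fold change was -1.34 (SE 0.38, edgeR adjusted p = 0.083) with that library and -1.73 (edgeR adjusted p = 0.028) without it. spin-1, a spinster-like lysosomal transporter that is not on this list, behaved alike. It had 9.42, 7.76, 9.28 and 14.5 CPM against 10.4, 4.15, 3.51 and 4.62 CPM. Its log2 fold change was -0.85 with and -1.32 without heat shock replicate 1 (edgeR adjusted p = 0.26 and 0.030). mct-2, a monocarboxylate transporter, had every heat shock library above every basal library, at 1.99, 2.4, 2.37 and 1.97 CPM against 7.65, 6.0, 2.58 and 4.73 CPM (log2 fold change 1.27, edgeR adjusted p = 0.084).

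The list of lipid-binding and lipid-transport genes holds the 4 neighbouring lipocalins described above. Of 10 measured members 7 had a log2 fold change below 0, against 54.4% of the 410 genes, and 3 above it. The 4 lipocalins were among the 7, and the 3 above 0 were all other members. The median was -0.59, and 0 were called, against 2.68% of the 410 genes. lpr-3 and lpr-5 are also on the molting list. The members other than the lipocalins ranged from -1.09 for lbp-8, a fatty acid-binding protein that acts in lysosomal lipid signalling, to 0.17 for far-8. All 10 were below 0 without heat shock replicate 1, with a median of -0.73.

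C-type lectins (6 genes) had a median of -0.10, lysozymes and other antimicrobial genes (6 genes) of 0.07 and pharyngeal cuticle and prion-like genes (11 genes) of -0.05, and 0 members of these lists were called. The median of the pharyngeal list was -0.21 without heat shock replicate 1. ilys-4, an invertebrate lysozyme, had groups apart, at 2.36, 2.46, 2.89 and 1.97 CPM against 4.05, 5.50, 4.22 and 4.57 CPM (log2 fold change 0.92, edgeR adjusted p = 0.12). pqn-75, a gene with a glutamine-rich prion-like domain, also had groups apart, at 5.39, 5.30, 7.94 and 5.60 CPM against 23.3, 8.47, 11.9 and 8.98 CPM (log2 fold change 1.12, edgeR adjusted p = 0.11). Without heat shock replicate 1, the highest, its log2 fold change was 0.69 (edgeR adjusted p = 0.16). 3 cytochrome P450 genes were below 0, with cyp-25A2 the most changed at 18.8 ± 3.47 CPM against 10.6 ± 4.32 CPM (SD, n = 4 each; log2 fold change -0.84, edgeR adjusted p = 0.15).

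**Figure D4:**
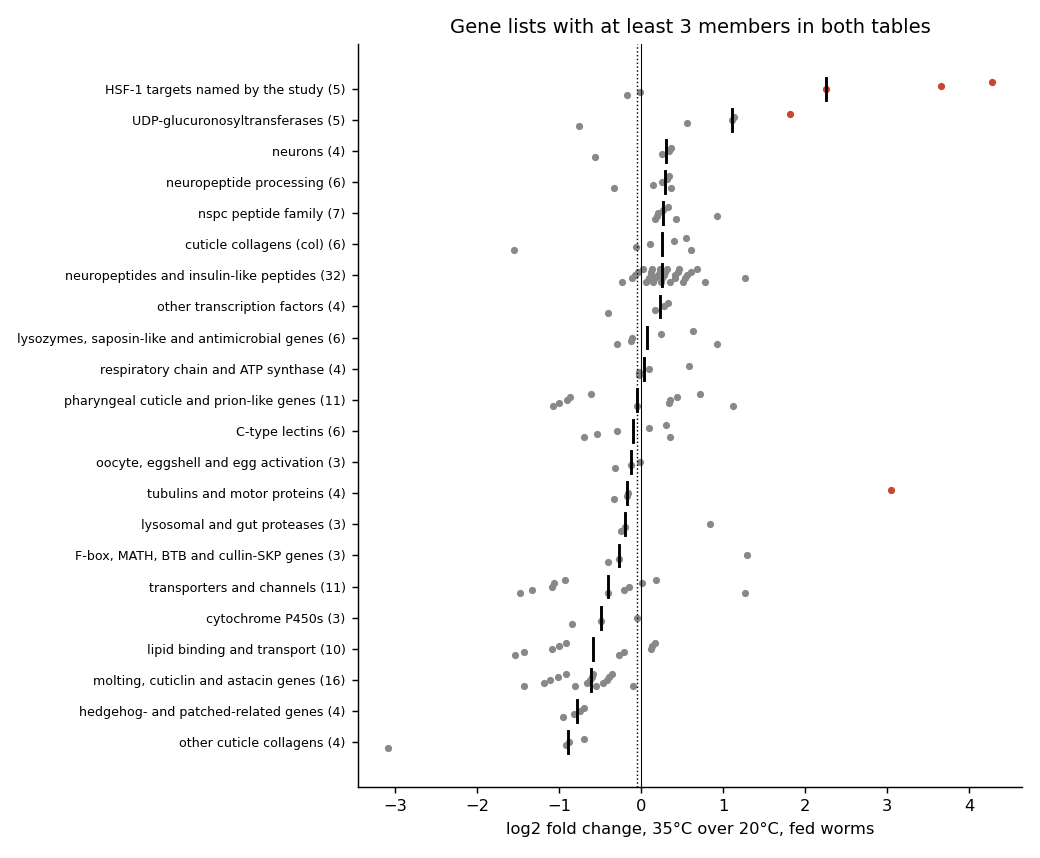
Log2 fold change of heat shock over basal in fed worms (horizontal axis) for the members of the 22 gene lists with at least 3 of the 410 genes, 1 point a gene, with the number of genes after each list's name. Red points are genes called by edgeR, black bars are medians of a list and the dotted line is the median of all 410 genes, -0.05; the 5 named HSF-1 targets and the 5 UDP-glucuronosyltransferases have the highest medians, 2.26 and 1.11, and the body-shape collagens the lowest, -0.90.

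The 3 genes of oocytes, eggshell and egg activation in the set were egg-5, egg-4 and cpg-9, and 0 of them were called. egg-4, the partner of egg-5, had 194 ± 16.7 CPM at 20°C and 177 ± 15.9 CPM after heat shock (SD, n = 4 each; log2 fold change -0.13). cpg-9 had a log2 fold change of -0.32, and of -0.65 without heat shock replicate 1. hcp-1, a centromere protein related to CENP-F, had 471, 447, 402 and 355 CPM against 334, 278, 335 and 347 CPM, with groups apart (log2 fold change -0.37, SE 0.12, edgeR adjusted p = 0.12). lin-5, a spindle-positioning protein related to NuMA, and glh-4, a germ granule helicase, had log2 fold changes of -0.30 and -0.36 (edgeR adjusted p = 0.18 for both). hcp-1, lin-5 and glh-4 were named after their values were seen.

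The flattest genes of high level were cyn-5, a cyclophilin, serp-1.1 and rpl-10a, a ribosomal protein of the large subunit. rpl-10a had 958 ± 137 CPM at 20°C and 959 ± 69.7 CPM after heat shock, and cyn-5 had 276 ± 14.3 and 275 ± 34.5 CPM (SD, n = 4 each). The standard errors of their log2 fold changes were 0.11 for both genes and 0.17 for serp-1.1. These values do not stand for every well-covered gene in fed worms. The standard error was also 0.11 for xbp-1, but 0.39 for tts-1. rps-27A, the other cytosolic ribosomal protein gene in the set, had a log2 fold change of -0.12.

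The fold change differed with the length of the gene. With the genes split by length into 4 bins of 102 or 103 genes, the median log2 fold change was 0.12 in the shortest bin and in the second, -0.08 in the third and -0.27 in the longest. Without heat shock replicate 1 the medians were -0.02, -0.03, -0.14 and -0.29, in the same order. That library's own distance from the other 3 heat shock libraries ran in the same direction, with medians of 0.49, 0.50, 0.32 and -0.11 log2 units from the shortest to the longest bin. The part of length in the fold changes of single genes was not tested.

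The heat shock effect in fed worms was then set beside that in fasted worms over the same 410 genes. In fasted worms 82 genes (20.0%) were called by edgeR, 32 higher (7.8%) and 50 lower (12.2%). Of the 11 genes called in fed worms 10 were also called in fasted worms in the same direction, which was 90.9% of the fed calls and 12.2% of the fasted calls. F19B2.5 had a log2 fold change of 4.28 in fed and 4.00 in fasted worms, Y94H6A.10 of 3.65 and 3.27, lact-4 of 2.89 and 2.84, cdd-1 of 2.26 and 2.49, and drd-1 of -1.81 and -2.56. tbb-6 was the exception, with 0.17 in fasted worms. Of the 50 genes called lower in fasted worms, 48 had a fed log2 fold change below 0, against 54.4% of the 410 genes. Among the 32 called higher, 31 had a fed log2 fold change above 0, against 45.6%. The median standard error of a gene's log2 fold change was 0.36 in fed and 0.32 in fasted worms.

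The difference itself was tested as the interaction term of a model over all 16 libraries, fasted minus fed. It passed for 19 genes (4.63%), 5 (1.22%) in which the log2 fold change was higher in fasted worms and 14 (3.41%) in which it was lower, and 16 of the 19 were called in fasted and not in fed worms. This term equals the fasting effect after heat shock less the fasting effect at 20°C, the same contrasts by which the genes entered the tables. Its share therefore describes these genes and no others. The p-values of this term, here and below, take no account of that choice of genes. The median difference over the 410 genes was -0.14, and it became 0.07 when the libraries were scaled by TMM over the shared genes. The count was also sensitive to single libraries: leaving out 1 library gave from 5 to 20 genes. It was 5 without fasted basal replicate 1 or fed heat shock replicate 1, 6 without fed basal replicate 2 or fasted heat shock replicate 3, and 7 without fasted basal replicate 4, fasted heat shock replicate 1 or fed basal replicate 1. Without fasted heat shock replicate 4 and fed basal replicate 3 it was 10 and 12.

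tbb-6 was already at 16.3, 17.7, 32.7 and 24.5 CPM in fasted worms at 20°C and at 21.5, 29.1, 34.8 and 17.2 CPM after heat shock, so the fasted libraries of both temperatures overlapped and were above the fed basal libraries. The difference of its log2 fold changes was -2.88 (SE 0.54, edgeR adjusted p = 0.0092). Its neighbours ssp-35 and F55C5.2 had a log2 fold change of 2.28 and 2.32 in fasted worms, where both were called higher. mct-2 had 8.03, 2.60, 2.27 and 4.87 CPM at 20°C and 1.56, 2.39, 3.04 and 2.12 CPM after heat shock in fasted worms, and its log2 fold changes of 1.27 in fed and -0.97 in fasted worms differed by -2.24 (SE 0.57, edgeR adjusted p = 0.035).

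The genes whose effect was lower in fasted worms included the transporters described above. ncx-7 had a mean of 16.52 ± 3.17 CPM in fasted basal and 1.01 ± 0.0954 CPM in fasted heat shock libraries (SD, n = 4 each), so its log2 fold change of -4.02 exceeded the -1.48 of fed worms (difference -2.54, SE 0.45, edgeR adjusted p = 0.0092). pept-1, at -3.29 in fasted worms, and spin-1, at -2.87, differed from fed worms by -1.96 and -2.02 (edgeR adjusted p = 0.024 and 0.017). nas-3, an astacin metalloprotease gene, had the largest difference of the 19, -4.57 (edgeR adjusted p = 0.017). In fed worms its levels were 1.20, 0.946, 2.16 and 2.75 CPM at 20°C and 3.28, 0.785, 0.351 and 0.319 CPM after heat shock, so that heat shock replicate 1 alone was above the basal range, and the difference was no longer called without that library (-3.26, edgeR adjusted p = 0.054).

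**Figure D5:**
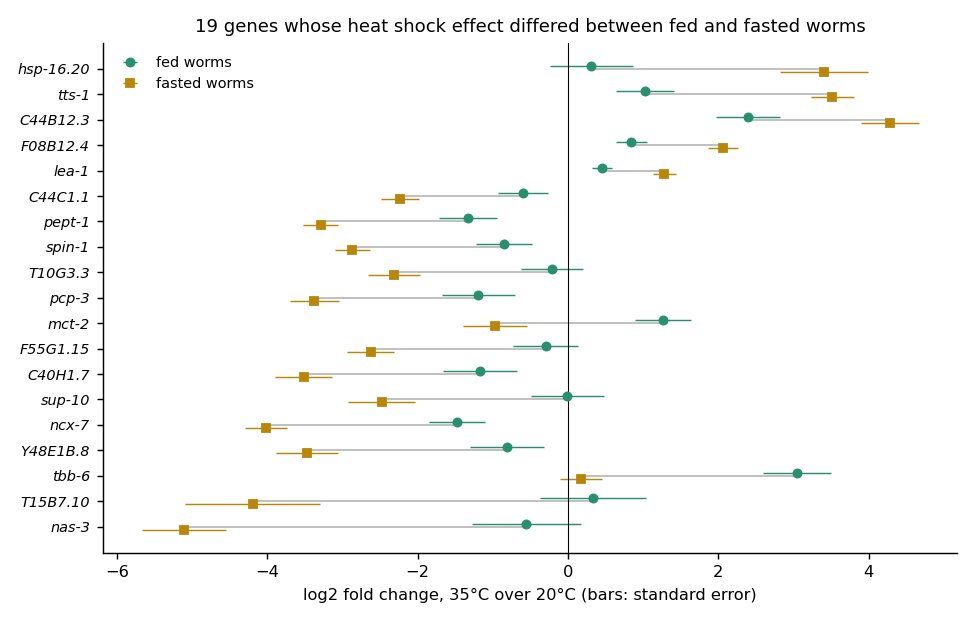
Log2 fold change of heat shock over basal (horizontal axis, bars show the standard error) in fed worms (green circles) and fasted worms (ochre squares) for the 19 genes whose heat shock effect differed between them by edgeR, ordered by the difference. In 17 of the 19 genes the signs are the same, and in tbb-6 the fed effect, 3.05, is far above the fasted effect, 0.17.

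In the opposite direction, the log2 fold changes of hsp-16.20, tts-1, C44B12.3, F08B12.4 and lea-1 were higher in fasted worms. hsp-16.20 had 1.42, 1.59, 1.58 and 0.976 CPM after heat shock in fasted worms against 0.809, 0.505, 0.117 and 0.478 CPM in fed worms, and the log2 fold changes of 3.40 and 0.31 differed by 3.1 (SE 0.85, edgeR adjusted p = 0.048). tts-1, a non-coding RNA that associates with ribosomes in long-lived worms, had 43.02, 65.3, 175 and 65.8 CPM at 20°C and 131, 163, 257 and 159 CPM after heat shock in fed worms, with overlapping groups. Its log2 fold change was 1.02 (SE 0.39) in fed and 3.51 in fasted worms, a difference of 2.49 (edgeR adjusted p = 0.017) beside a fasted basal level of 21.9 ± 7.45 CPM (SD, n = 4). C44B12.3 rose in both diets, with log2 fold changes of 2.4 and 4.28 (difference 1.88, edgeR adjusted p = 0.049). The calls of a difference were lost in 17 of the 24 alternative settings for hsp-16.20, in 19 for C44B12.3, in 15 for mct-2, in 8 for lea-1, in 7 for pept-1 and in 6 for F08B12.4. Those of F55G1.15 and nas-3 were lost in 1, and those of tbb-6, ncx-7, spin-1 and tts-1 in 0 of the 24.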

How the data were processed

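Whole-worm mRNA was selected on poly-dT beads, and paired-end reads were made from it by the authors, who used HISAT2 2.0.5, featureCounts 1.5.0-p3, the WBcel235 build and DESeq2, per the labels and the study's methods. The deposited tables hold raw counts, normalized counts (a signal with size factors particular to each table, used here only to check those factors) and FPKM for every library. They also hold the authors' log2 fold changes and p-values for fasted against fed worms, which were not used.

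Library reads were recovered as count × 1000000000 / (FPKM × gene length) and used as library sizes. Raw counts of the 410 shared genes were fitted with edgeR 4.0.16 in R 4.3.3 (glmQLFit, glmQLFTest, no filter, Benjamini-Hochberg over 410 genes, called at an adjusted p under 0.05), after the code was tested on simulated data. The fit used the 8 fed libraries; the interaction used all 16. A fold is a ratio of mean CPM. Medians, counts and per-library values describe gene lists, with no set test. Alternatives were TMM, DESeq2 size factors, removal of hsp reads, DESeq2 1.42.0, limma 3.58.1 on log2(FPKM + 1) or log2(FPKM + 0.1), a minimum mean of 10 counts, a replicate block, all 4 groups in 1 fit, a 1.5-fold bound, and leaving out each library.

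Genes named were HSF-1 targets named by the study, called genes with non-overlapping libraries and a mean of at least 1 CPM (up to 15 rises and 10 falls), up to 3 members with the smallest p from each list with 3 or more shared genes, the 5 genes per direction with the smallest interaction p, and the 3 flattest genes of at least 50 CPM; others are marked as chosen after their values were seen, or are given as further members of a list. The members and lists were chosen with earlier results of these data known. RefSeq named 407 of the 410 genes, and 239 genes are in none of the 50 lists. Precision rests on 4 libraries a group and on a median of 132 reads a gene and library.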

Additional observations from a re-analysis of the deposited data

Results flagged for a closer look

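9 values stood apart from the other 3 libraries of their group by Dixon's criterion, which chance meets in about 5% of groups of 4. With 190 groups of 4 screened that is 9.5 groups, about the number found. The groups share the same 8 fed libraries and are not independent, so this count cannot settle whether any of the 9 arose by chance. Fed heat shock replicate 1 gave 4 of them: the share of reads in the shared genes, 1.88% against 1.66% to 1.68%, spin-1 at 10.4 CPM against 3.51 to 4.62, nas-3 at 3.28 CPM against 0.319 to 0.785, and cpg-9, an eggshell-related gene, at 21.4 CPM against 9.96 to 11.4. In the same group cyp-37B1 was at 3.87 CPM in replicate 3 against 0.0531 to 0.561. Among fed basal libraries, ssp-35 was at 0.147 CPM in replicate 4 against 0 in the others, and math-41 at 4.18 CPM in replicate 4 against 2.78 to 2.96. In fed basal replicate 3, pqn-75 was at 7.94 CPM against 5.30 to 5.60, and Y22D7AL.10 at 200.9 CPM against 236.8 to 244.1.

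The heat shock effect differed between fed and fasted worms by the edgeR interaction term for 12 of the genes named. The log2 fold change was lower in fasted than in fed worms by a difference of -4.57 for nas-3, -2.88 for tbb-6, -2.54 for ncx-7, -2.33 for F55G1.15, -2.24 for mct-2, -2.02 for spin-1 and -1.96 for pept-1. It was higher in fasted worms by 3.1 for hsp-16.20, 2.49 for tts-1, 1.88 for C44B12.3, 1.22 for F08B12.4 and 0.83 for lea-1.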

How the results depend on the processing

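Without a change of libraries, the 11 genes called in fed worms became 17 with TMM, 24 with all 4 groups in 1 fit and 39 with DESeq2, and 8 to 15 under the other alternatives; leaving out 1 library gave 9 to 21. Higher genes made up 90.9% of calls, but 76.9% with DESeq2 size factors, 71.8% with DESeq2, 79.2% with all groups in 1 fit, 75% without basal replicate 2, 80.0% without heat shock replicate 3 and 66.7% without heat shock replicate 1. Across these settings the calls of 3 genes were lost (fis-2, ugt-13 and Y48G8AL.13), and 0 called genes reversed. The 19 differences between fed and fasted worms ran from 5 to 20 when 1 library was left out. The deviations of same-numbered fed libraries correlated at -0.25, -0.12, 0.56 and 0.44 over 400 genes. The best match carried the same number for 2 libraries. These mixed values cannot settle whether the replicate numbers pair the fed libraries, and the design is not stated. With the replicate block 15 genes were called in fed worms, without fis-2, and 10 differences. The sign of 10 genes that were not called changed, 2 of which, ptr-4 and cyp-37B1, had log2 fold changes of -0.75 and -0.49 over all libraries: with hsp reads removed, cyn-5 was at 0.020, serp-1.1 at 0.020 and egg-5 at 0.0059, and rpl-10a was at -0.036 with TMM and -0.061 with DESeq2 size factors. When 1 library was left out the log2 fold change ran from -1.21 to 0.015 for ptr-4, -0.60 to 0.00018 for irg-4, -0.081 to 0.62 for hsp-16.20, -2.57 to 0.74 for cyp-37B1, -0.099 to 0.027 for cox-6C, -0.080 to 0.063 for cyn-5, -0.13 to 0.079 for serp-1.1, -0.14 to 0.049 for cyp-33C8, -0.073 to 0.041 for egg-5 and -0.070 to 0.092 for rpl-10a. The causes were not tested. Of 1653 alternative values for 92 genes, 1539 kept direction and side of the threshold. Depth limits genes such as ssp-35 and hsp-16.20, with few reads a library.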

Other observations

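Among genes that belong to none of the lists, C46E10.8 and C46E10.9 lie 313 bases apart on the minus strand of chromosome II (3726529 to 3727459 and 3727772 to 3729707), and both were lower in every heat shock library than in every basal library of fed worms. They were chosen after their values were seen. C46E10.8 had 5.50, 5.42, 5.21 and 5.26 CPM at 20°C and 2.67, 2.52, 2.52 and 3.13 CPM after heat shock (log2 fold change -0.98, edgeR adjusted p = 0.076), and C46E10.9 had 7.22, 9.14, 6.44 and 7.57 CPM against 5.62, 3.64, 3.46 and 4.73 CPM (log2 fold change -0.80, edgeR adjusted p = 0.15). In fasted worms the log2 fold changes were -1.16 and -0.93, and both were called lower (edgeR adjusted p = 0.028 and 0.030). In all, 16 pairs of the 410 genes lie within 2000 bases of each other.

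Y50D4C.2, also in no list and chosen after its values were seen, had 14.9, 14.8, 10.2 and 11.5 CPM at 20°C and 7.77, 6.0, 5.56 and 9.51 CPM after heat shock in fed worms (log2 fold change -0.83, edgeR adjusted p = 0.11), with groups apart.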
